A study of Homo sapiens with 9 samples.

Results

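The 49 genes described here form the homologous recombination, Fanconi and damage signalling module. They were taken by symbol from the 25679 gene symbols of a transcript count table, each with the row of highest total count, and all 49 were found and passed the filter on low counts. They fall into 22 recombination genes, 11 Fanconi genes, 2 mismatch repair genes, 5 end joining genes and 9 damage signalling genes. The series asked how gene expression differs after knockdown of YTHDC1, a nuclear reader of the RNA mark N6-methyladenosine, in MOLM13, an established human acute myeloid leukemia line grown in culture. Of the 9 libraries, 3 came from cells given virus with a control short hairpin RNA (shRNA), 3 from cells given YTHDC1 shRNA 1 and 3 from cells given YTHDC1 shRNA 2. Cells of every group were spun with virus and 10 ug/ml polybrene, kept for 48 h, and then selected for 48 h with 3 ug/ml puromycin. Messenger RNA libraries were made with a stranded kit from 1 ug of RNA of the harvested cells. Nothing in the labels says that the 3 libraries of a group are separate cultures, so a p-value here measures only how these libraries vary.

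Homologous recombination mends broken DNA and collapsed replication forks by copying the sister chromatid: the ends are cut back to single strands, which, with the help of BRCA2 and other mediators, pair with the matching sequence. The Fanconi pathway clears cross-links between the DNA strands, through a core complex that puts ubiquitin on FANCD2 and FANCI. End joining reseals breaks without a template, and the kinases ATM and ATR signal damage to CHEK2 and CHEK1, which hold the cell cycle. Many genes of recombination and of the Fanconi pathway are known to be transcribed mainly in the S and G2 phases. The end joining factors are used through the whole cycle. Cell cycle phase was not measured here.

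Library totals ran from 26455628 to 67558535 counts. A gene with 3 counts stands at 0.0444 to 0.113 CPM (counts scaled to a common library size), depending on the library. YTHDC1 stood at 134, 139 and 122 CPM with the control shRNA and at 117, 103 and 134 CPM with shRNA 1, and these ranges overlapped (log2 fold change -0.16 ± 1.36 SE, edgeR adjusted p = 0.938). With shRNA 2 it stood at 0, 61.4 and 52.4 CPM. The library at 0 widened the SE of both comparisons. Without that library the log2 fold change of YTHDC1 was -1.23 with shRNA 2 (adjusted p = 2.2e-05 in edgeR). With shRNA 1 it was then -0.18 ± 0.13 SE (adjusted p = 0.271 in edgeR). A fall of the targeted RNA was thus not measured for the libraries labelled shRNA 1. The library labelled shRNA 2 replicate 1 stood apart: 1058 of 16746 genes tested (6.32%) were under 0.5 of both other shRNA 2 libraries there. MDC1 was the single member of the module among these 1058 genes. Counts of members against control are therefore also given without that library.

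With shRNA 1, 35 of the 49 members were lower than in control, 3 were higher and 11 did not pass the test, where 19% of all genes tested were lower and 20.4% higher (edgeR, Benjamini-Hochberg adjusted p under 0.05). With shRNA 2, 41 members were lower, 3 higher and 5 not past the test, against 27.4% and 27.5% of all genes. Without shRNA 2 replicate 1 the members numbered 36 lower and 3 higher with shRNA 1, and 40 lower and 2 higher with shRNA 2, against 20.8%, 19.6%, 27% and 25.8% of all genes. For the mean of both shRNAs against control, 39 members were lower and 3 higher, against 26.2% and 26.3% of all genes, and without that library 40 and 3, against 27.4% and 25%. The median log2 fold change of the members was -0.69 with shRNA 1 and -1.18 with shRNA 2, where the medians of all genes were 0.02 and -0.02. Falls of more than 2-fold were called for 20 members with shRNA 1 (6.2% of all genes) and 28 with shRNA 2 (10.9%). Without shRNA 2 replicate 1 they were called for 20 and 29, where the shares of all genes were not computed. Most of the module stood below control with either shRNA, but not all of it. The members were chosen with earlier results of these data known, so the shares beside all genes describe them and are no independent test. In RNA from a whole culture, fewer cells that express a gene and less of its RNA in each cell cannot be told apart.

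Both comparisons use the same 3 control libraries, so their calls are not independent. Lower with both shRNAs were 35 members (15.2% of all genes), and RAD50, LIG4 and ATM were higher with both. Without shRNA 2 replicate 1 these were 36 and 2, as RAD50 was then not called with shRNA 2. The share of all genes higher with both was not computed, nor were the shares called with both without that library. These counts are thus given without a reading. Called lower only by the test of shRNA 2 were FANCF, PMS2, XRCC5, TP53BP1, and XRCC6 and CHEK2 (which passed with shRNA 1 under some alternatives). Of these, FANCF, XRCC6, CHEK2 and TP53BP1 were also lower with shRNA 2 than with shRNA 1 when tested directly, and PMS2 and XRCC5 were not. The direct call of XRCC6 missed the threshold under 8 alternatives (adjusted p 0.0509 to 0.156, with 0.103 without shRNA 2 replicate 1), and that of FANCF under 4 (0.0561 to 0.0858, the last without that library). BRCA2, NBN, XRCC4, ATR and MDC1 passed neither test. Every shRNA 1 library lay below every control library for 38 members (24.2% of all genes), and every shRNA 2 library did for 42 (35.1%).

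**Figure D1:**
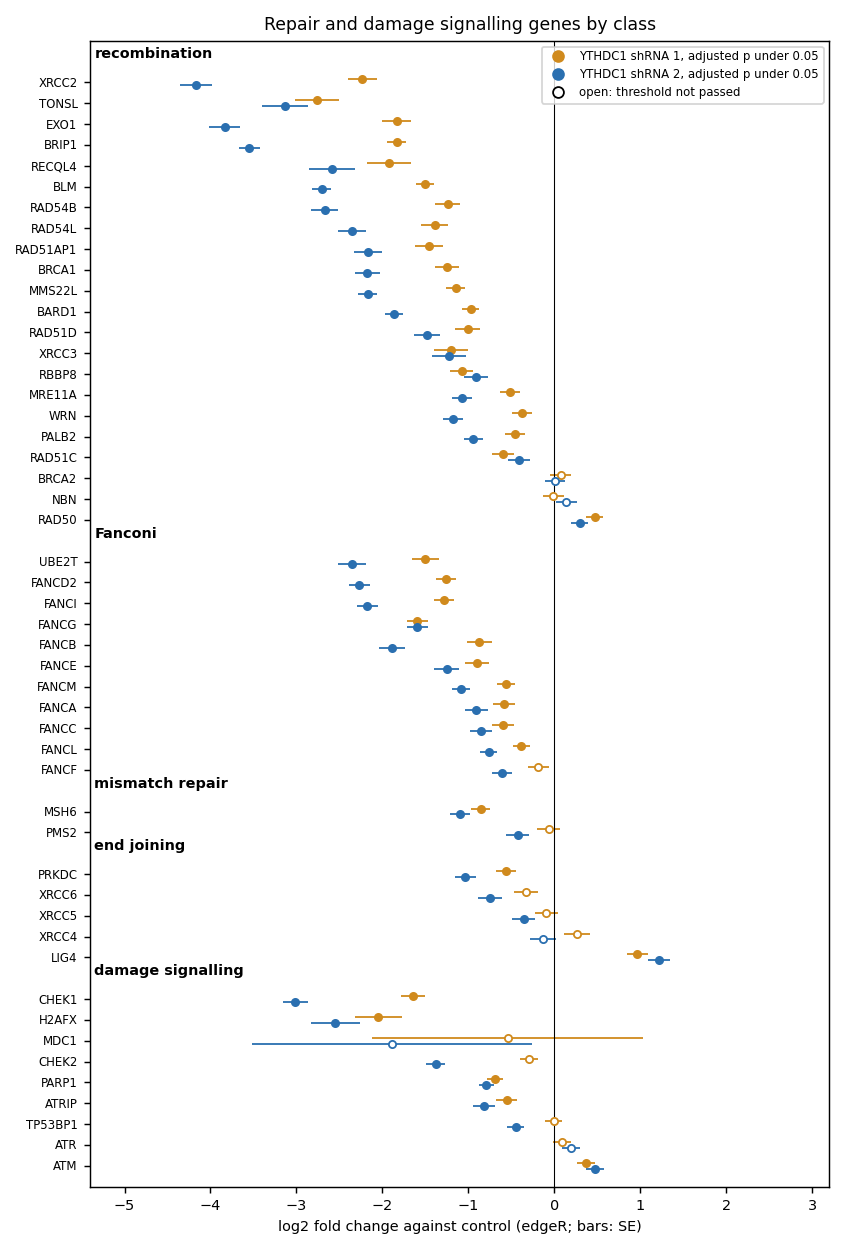
Log2 fold change against control of all 49 members, by class, with shRNA 1 and shRNA 2 (points, edgeR; bars are SE; filled points have an adjusted p under 0.05, open points do not). The recombination and Fanconi genes lie mostly left of 0, XRCC2 with shRNA 2 lies farthest left at -4.17, and RAD50, LIG4 and ATM lie right of 0; the wide bars of MDC1 come from 1 library with 2 counts.

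By class the values were as follows. Of all genes, 19% were lower and 20.4% higher with shRNA 1, and 27.4% and 27.5% with shRNA 2. Without shRNA 2 replicate 1 these shares were 20.8%, 19.6%, 27% and 25.8%. Of the 2 mismatch repair genes, 1 was lower with shRNA 1 and 2 with shRNA 2 (1 without shRNA 2 replicate 1). Their medians were -0.46 and -0.76, and none was higher. Of the 22 recombination genes, 19 were lower and 1 higher with each shRNA, with medians of -1.17 and -2.02, and without shRNA 2 replicate 1 none was higher with shRNA 2. Of the 11 Fanconi genes, 10 were lower with shRNA 1 and 11 with shRNA 2, with medians of -0.87 and -1.25, and none was higher. The 9 damage signalling genes held 4 lower and 1 higher with shRNA 1, and 6 lower and 1 higher with shRNA 2, with medians of -0.54 and -0.82. Without shRNA 2 replicate 1, in which MDC1 had lost its reads, these became 5 and 7 lower, with 1 higher in each. End joining had the medians nearest to 0, with 1 lower and 1 higher of 5 with shRNA 1, near the 19% and 20.4% of all genes. With shRNA 2, 3 were lower and 1 higher (2 and 1 without shRNA 2 replicate 1), and the medians were -0.09 and -0.36. The differences between classes were not tested.

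RNA of proliferation markers fell beside the module. All 8 listed markers (MKI67, TOP2A, CCNB1, CCNA2, PCNA, TYMS, RRM2 and CDK1) were lower with each shRNA, with medians of -1.43 and -3.70. Their summed level was 1296 to 1616 CPM in control, 486.5 to 619.8 CPM with shRNA 1 and 143.1 to 166.6 CPM with shRNA 2. MKI67, a marker of cycling cells, fell by 1.39 and 4.20 on the log2 scale. MYC, a growth-promoting transcription factor, fell by 1.39 and 2.02. The list of 14 E2F and DREAM regulators, which control S-phase genes, had 8 lower and 2 higher with shRNA 1. With shRNA 2 it had 10 lower and 1 higher. Of all genes, 19% were lower and 20.4% higher with shRNA 1, and 27.4% and 27.5% with shRNA 2. CDKN1A, a cell cycle inhibitor, rose 3.36-fold and 3.96-fold, and RBL2, a subunit of DREAM, was higher by 0.37 with shRNA 1 and fell by 0.45 with shRNA 2. E2F1 fell by 2.39 and 2.72, and E2F2 by 2.52 and 4.54. Markers of other cell types stayed low: summed lymphocyte markers lay at 0.715 to 1.71 CPM, erythroid and megakaryocyte markers at 0.187 to 0.632 CPM with PF4 at 0 in every library, and epithelial and stromal markers at 2.24 to 7.80 CPM over all libraries. The 8 listed myeloid leukemia markers summed to 1269 to 1659 CPM over all libraries. With shRNA 1, 2 of them were lower (25%) and 4 higher (50%). With shRNA 2, 3 were lower and 3 higher (37.5% each). Apart from the 50%, these lie near the shares of all genes for so short a list. ITGAM, a marker of maturing myeloid cells, rose 3.40-fold and 7.35-fold, and PTPRC and SPI1 were higher with both. MPO, a granule enzyme, was 2.94-fold higher with shRNA 1 and 2.41-fold lower with shRNA 2. FLT3 and MEIS1 were lower with both, and CD33 and HOXA9 passed neither test. These lists were also chosen with earlier results of these data known. The part of any of these genes in the module's levels was not tested.

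**Figure D2:**
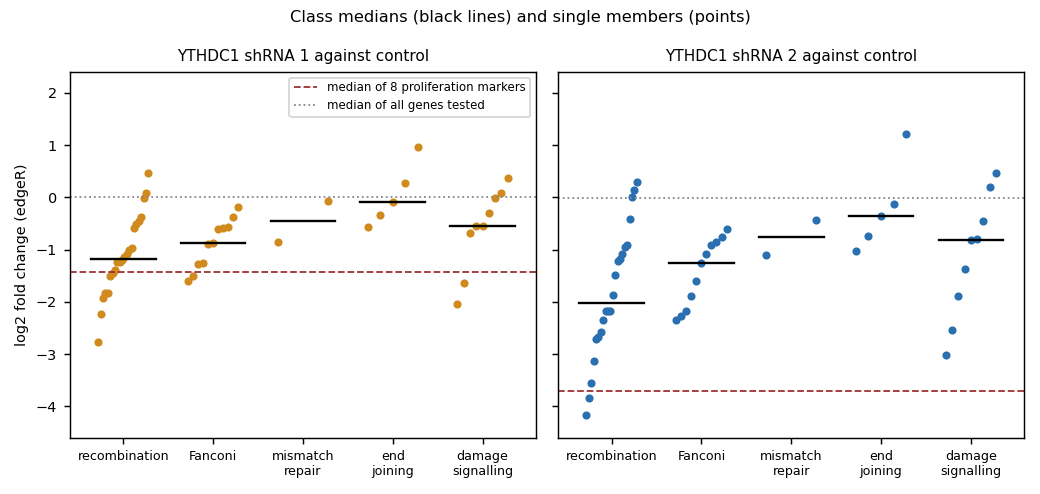
Log2 fold change against control of each member (points), by class, with shRNA 1 (left) and shRNA 2 (right); black lines are class medians, the dashed line is the median of 8 proliferation markers and the dotted line that of all genes tested. Recombination lies lowest in both panels (medians -1.17 and -2.02), end joining nearest to 0, and the proliferation median lies at -1.43 and -3.70.

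The sequence around the transcription start is shown for 4 members picked by rule among those with a promoter at hand. They are the pair of most lowered genes whose promoters hold an E2F-type site, the gene that rose most, and the gene nearest to no change. The matches in the first pair were thus fixed by the choice, and these genes do not stand for the module. The sequences are RefSeq promoters of build GRCh38.p14, from 170 bases before the start to the first 30 transcribed bases, read 5′ to 3′ on the gene's strand, with E2F-type matches in capitals. They are XRCC2 at chr7:152676112-152676311 (minus strand), EXO1 at chr1:241848034-241848233 (plus strand), LIG4 at chr13:108218320-108218519 (minus strand) and BRCA2 at chr13:32315338-32315537 (plus strand).
XRCC2: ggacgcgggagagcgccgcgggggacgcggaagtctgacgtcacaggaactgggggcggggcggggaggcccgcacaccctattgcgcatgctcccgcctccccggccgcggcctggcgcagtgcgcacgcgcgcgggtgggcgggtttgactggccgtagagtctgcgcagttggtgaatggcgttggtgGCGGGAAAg
EXO1: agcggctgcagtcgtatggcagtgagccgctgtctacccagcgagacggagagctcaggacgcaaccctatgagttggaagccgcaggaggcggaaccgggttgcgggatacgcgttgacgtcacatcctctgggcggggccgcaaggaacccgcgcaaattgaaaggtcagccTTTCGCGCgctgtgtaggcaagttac
LIG4: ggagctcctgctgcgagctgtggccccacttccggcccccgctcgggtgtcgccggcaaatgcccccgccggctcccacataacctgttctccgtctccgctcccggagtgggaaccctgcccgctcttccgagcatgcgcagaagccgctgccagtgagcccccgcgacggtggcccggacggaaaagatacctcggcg
BRCA2: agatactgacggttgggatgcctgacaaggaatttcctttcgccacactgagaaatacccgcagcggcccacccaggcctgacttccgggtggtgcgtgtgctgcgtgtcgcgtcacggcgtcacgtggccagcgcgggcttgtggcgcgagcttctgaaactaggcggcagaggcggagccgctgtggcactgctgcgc
The capitals in XRCC2 are the reverse strand of TTTCCCGC, and those in EXO1 are TTTCGCGC; the windows of LIG4 and BRCA2 held no match.

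Promoters from 250 bases before to 50 bases after the start were at hand for 41 of the 49 members. None was at hand for FANCI, XRCC5 or the members on chromosome 8 (TONSL, RAD54B, WRN, RECQL4, NBN and PRKDC). The first 15 transcribed bases were found in a transcript of the gene on the same strand for 36 of the 41. The E2F type, searched on both strands as TTTCCCGC, TTTCGCGC, TTTGCCGC or TTTGGCGC, was found in 8 of them (19.5%), where 908 of 27305 promoters in the reference (3.33%) held it. These were XRCC2, EXO1, FANCA, FANCC, FANCD2, MSH6, PMS2 and XRCC6. No match was found for BRIP1, CHEK1, H2AFX or BLM, which had averaged log2 fold changes of -2.69, -2.33, -2.3 and -2.1. Among the 41 members with a promoter at hand, 6 of the 29 lower with both shRNAs (20.7%) and 2 of the 12 others (16.7%) held an E2F-type match. The cell cycle homology type, TTTGAA or TTCGAA, was in 6 of 41 (14.6%) against 16.6% of all promoters, and the E-box CACGTG was in 3 of 41 (7.32%) against 7.44%. A match is a description of the sequence only.

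Among the recombination genes, XRCC2, TONSL and EXO1 had the largest averaged falls. TONSL, which binds newly made histones and, with MMS22L, helps stalled forks recover, stood at 24.2, 29.8 and 35.6 CPM in control, at 3.34, 6.37 and 3.48 CPM with shRNA 1 and at 3.89, 3.21 and 3.15 CPM with shRNA 2. Every YTHDC1 shRNA library lay below every control library, and both shRNA groups overlapped each other. It was 6.78-fold lower with shRNA 1 (-2.76 ± 0.26 SE on the log2 scale, adjusted p = 2.41e-05 in edgeR) and 8.78-fold lower with shRNA 2 (-3.13 ± 0.26, adjusted p = 3.83e-06). Between the shRNAs it differed by -0.37 ± 0.25 (adjusted p = 0.294). Its partner MMS22L went from 94.4 ± 5.88 CPM (SD, n = 3) to 42.6 ± 3.44 and 20.9 ± 2.09 CPM, a graded fall, with log2 fold changes of -1.15 and -2.17.

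The recombination paralogs XRCC2, XRCC3, RAD51C and RAD51D, which act as mediators of strand exchange, were each lower with both shRNAs. XRCC2 stood at 29.1, 30.9 and 27.1 CPM in control, at 5.96, 5.03 and 7.5 CPM with shRNA 1 and at 1.68, 1.81 and 1.35 CPM with shRNA 2. The 3 groups were fully apart, with shRNA 2 lowest. On the log2 scale XRCC2 fell by 2.24 ± 0.17 and by 4.17 ± 0.19 (edgeR adjusted p = 5.04e-06 and 3.92e-08), which is 4.71-fold and 18.0-fold. The other paralogs fell less: RAD51D by 1.01 and 1.48, XRCC3 by 1.2 and 1.22, and RAD51C by 0.59 and 0.41. RAD51C was also the least stable of them, as its fall with shRNA 2 missed the threshold without control replicate 1 (adjusted p = 0.0899) or shRNA 2 replicate 3 (0.0633). XRCC2 works with RAD51D in the paralog complex that also holds RAD51B and RAD51C, while XRCC3 pairs with RAD51C in another.

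Falls were also called for EXO1 and the helicases BRIP1, BLM, RECQL4 and WRN. EXO1, the exonuclease that extends end resection, stood at 75.6, 72.9 and 62.3 CPM in control, at 21.3, 17.7 and 20.1 CPM with shRNA 1 and at 4.71, 6.23 and 3.82 CPM with shRNA 2. No library of one group reached the range of the next. EXO1 fell by 1.83 ± 0.17 with shRNA 1 (edgeR adjusted p = 1.54e-05) and by 3.83 ± 0.18 with shRNA 2 (adjusted p = 4.79e-08, 14.3-fold). BRIP1, the helicase that binds BRCA1, went from 56.6 ± 4.31 CPM to 15.9 ± 1.42 and 4.84 ± 0.384 CPM, a fall of 1.83 and 3.55. BLM, the RecQ helicase that dissolves crossed strands, fell by 1.51 and 2.70, and RECQL4, a RecQ helicase also used at replication origins, by 1.92 and 2.58. WRN, the RecQ helicase of Werner syndrome, fell by 1.18 with shRNA 2. With shRNA 1 WRN was lower by a smaller margin (-0.37, adjusted p = 0.0256), and that call missed the threshold without any 1 of control replicates 1, 2 or 3 or shRNA 1 replicates 1 or 2 (adjusted p 0.0501 to 0.0706). RAD54L and RAD54B, motors that drive strand exchange, fell by 1.39 and 1.24 with shRNA 1 and by 2.35 and 2.67 with shRNA 2. RAD51AP1, which stimulates strand exchange, fell by 1.46 and 2.17.

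BRCA1 and its partners fell, and BRCA2 passed neither test. BRCA1, a ubiquitin ligase that favours resection and recruits PALB2, stood at 108, 95.3 and 86.6 CPM in control, at 42.0, 34.2 and 46.0 CPM with shRNA 1 and at 21.1, 24.3 and 18.96 CPM with shRNA 2. The groups did not overlap, and BRCA1 fell by 1.25 ± 0.14 and 2.17 ± 0.15 (edgeR adjusted p = 6.38e-05 and 4.67e-07). BARD1, its obligate partner, fell by 0.97 and 1.87, and PALB2, which bridges BRCA1 to BRCA2, by 0.46 and 0.94. BRCA2 itself, a mediator of strand exchange, stood at 153, 134 and 122 CPM in control, at 142.5, 126 and 162 CPM with shRNA 1 and at 127, 138 and 146 CPM with shRNA 2. All 3 groups overlapped. Its log2 fold changes were 0.08 ± 0.12 (edgeR adjusted p = 0.662) and 0.01 ± 0.12 (adjusted p = 0.955), and its averaged value, 0.04 ± 0.10, was the nearest to 0 of the 49 members.

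The MRN complex, which senses breaks and starts resection, had 1 subunit lower, 1 higher and 1 that passed neither test. MRE11A, its nuclease, stood at 98.3, 93.1 and 89.4 CPM in control, at 62.3, 56.0 and 77.9 CPM with shRNA 1 and at 43.0, 46.2 and 44.0 CPM with shRNA 2. It fell by 0.52 ± 0.12 and 1.07 ± 0.12 (edgeR adjusted p = 0.00562 and 2.31e-05), with no overlap between groups. RAD50, the clamp that tethers ends, stood at 86.8, 80.5 and 75.7 CPM in control, at 118, 100 and 119 CPM with shRNA 1 and at 96.6, 97.1 and 104 CPM with shRNA 2. All 6 YTHDC1 shRNA libraries lay above the 3 control libraries.

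RAD50 was higher by 0.47 ± 0.10 with shRNA 1 (edgeR adjusted p = 0.00326) and by 0.29 ± 0.10 with shRNA 2 (adjusted p = 0.0265). The second call missed the threshold without any 1 of the shRNA 2 libraries (0.0706 without replicate 1, 0.0634 without 2, 0.0801 without 3), without control replicate 2 (0.100) or 3 (0.123), and with no filter on low counts (0.15). NBN, the subunit that recruits ATM, stood at 217, 194 and 169 CPM in control, at 217, 170 and 188 CPM with shRNA 1 and at 210, 223 and 205 CPM with shRNA 2. The control and shRNA ranges overlapped, with log2 fold changes of -0.01 ± 0.12 and 0.14 ± 0.12 (adjusted p = 0.951 and 0.359). RBBP8, also called CtIP, the cofactor that switches on the MRE11 nuclease, fell by 1.08 and 0.91.

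**Figure D3:**
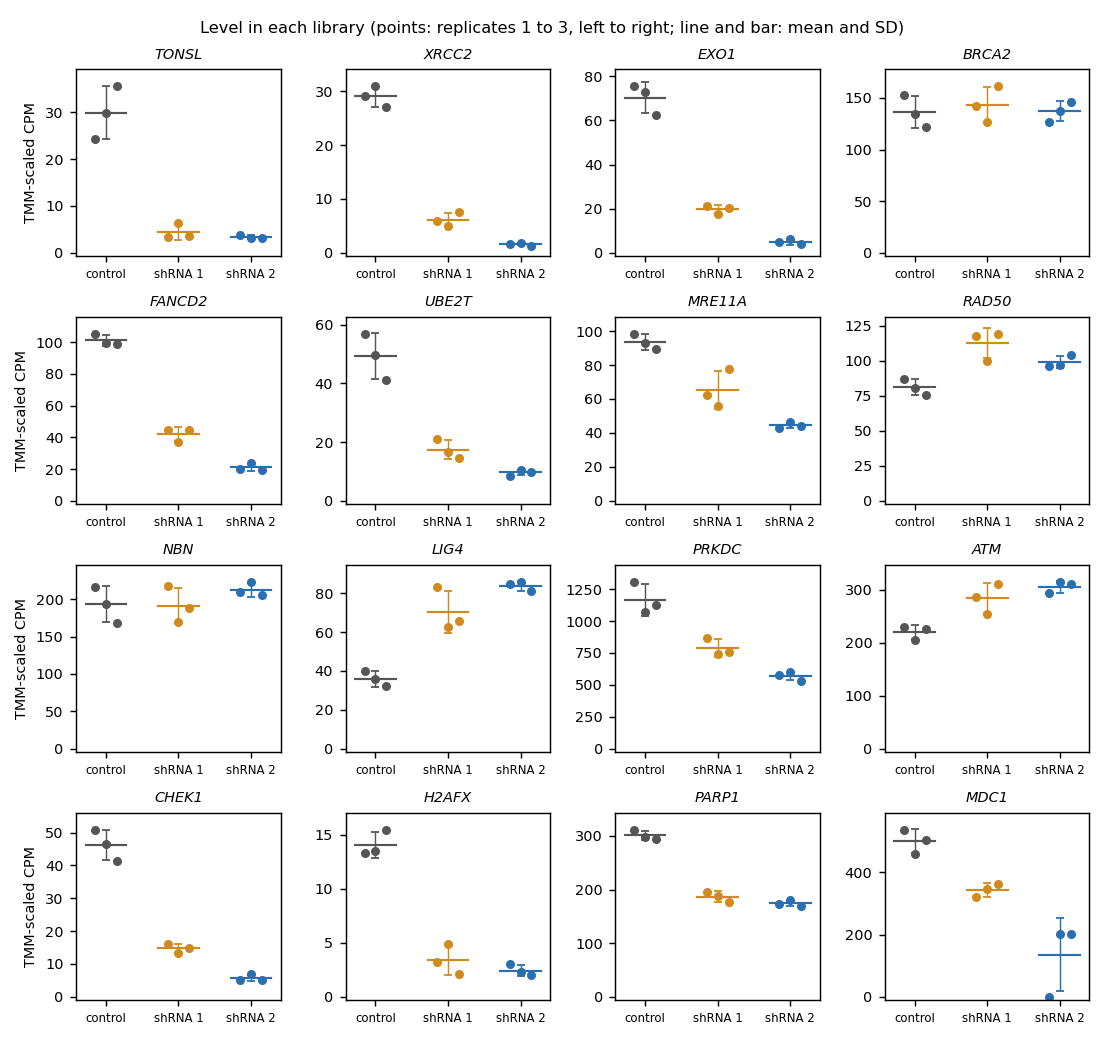
TMM-scaled CPM in each library for 16 members (points, replicates 1 to 3 from left to right; line and bar are mean and SD, n = 3 per group; each panel has its own axis from 0). TONSL, XRCC2, EXO1, FANCD2, UBE2T, CHEK1 and H2AFX drop in all 6 YTHDC1 shRNA libraries, BRCA2 and NBN overlap control, RAD50, LIG4 and ATM lie above it, and MDC1 is near 0 in shRNA 2 replicate 1 only.

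Every Fanconi gene fell with shRNA 2, and all but FANCF fell with shRNA 1. By the highest row of each gene, the averaged falls were largest for UBE2T, FANCD2 and FANCI, and with shRNA 1 alone FANCG fell most. FANCD2 and FANCI are the pair of proteins that receive ubiquitin, and UBE2T is the enzyme that brings it. This ranking depends on the row: a second FANCA row, described below and tested after seeing the data, had an averaged log2 fold change of -2.15. FANCD2 stood at 105.2, 99.5 and 99.0 CPM in control, at 44.9, 37.0 and 44.8 CPM with shRNA 1 and at 20.1, 23.7 and 19.3 CPM with shRNA 2. Its partner FANCI stood at 111, 96.8 and 99.7 CPM, then 44.1, 37.2 and 45.3 CPM, then 23.3, 24.8 and 20.04 CPM. UBE2T stood at 56.8, 49.6 and 41.2 CPM, then 20.9, 16.6 and 14.7 CPM, then 8.56, 10.5 and 9.85 CPM. In each of these genes the groups were fully apart and shRNA 2 was lowest. With shRNA 1, FANCD2 fell by 1.26 ± 0.12, FANCI by 1.28 ± 0.12 and UBE2T by 1.5 ± 0.16 (edgeR adjusted p = 1.65e-05, 1.73e-05 and 4.35e-05). With shRNA 2 the falls were 2.27 ± 0.12, 2.17 ± 0.12 and 2.35 ± 0.16 (adjusted p = 8.88e-08, 1.39e-07 and 6.76e-07).

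The core complex acts with UBE2T. FANCG, a scaffold subunit, went from 19.8 ± 0.303 CPM (SD, n = 3) to 6.53 ± 0.489 and 6.54 ± 0.524 CPM, and fell by 1.60 with each shRNA. FANCB, a partner of the ligase subunit, fell by 0.87 and 1.89, and FANCL, the ligase subunit itself, by 0.38 and 0.76. FANCE and FANCC, which join the complex to FANCD2, fell by 0.90 and 0.60 with shRNA 1 and by 1.25 and 0.85 with shRNA 2. FANCM, the translocase that brings the complex to DNA, fell by 0.56 and 1.09. FANCF, an adaptor subunit, had -0.18 with shRNA 1 (edgeR adjusted p = 0.241) and fell by 0.61 with shRNA 2 (adjusted p = 0.00121).

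FANCA, a core subunit that binds FANCG, gave a different value for each of its transcript rows. Its highest row stood at 40.8, 46.1 and 50.7 CPM in control, at 26.5, 32.4 and 33.0 CPM with shRNA 1 and at 26.8, 25.4 and 21.3 CPM with shRNA 2, falling by 0.58 ± 0.13 and 0.91 ± 0.13 (edgeR adjusted p = 0.00487 and 0.000163). A second row, NM_001018112, held 20.4% ± 0.848 (SD, n = 3) of the counts of the highest row in control, 9.75% ± 0.828 with shRNA 1 and 6.09% ± 0.432 with shRNA 2. The libraries of the 3 groups did not overlap in this share, and the row held 1806, 492 and 194 counts in the 3 groups. Tested in place of the highest row, a choice made after seeing the data, it fell by 1.65 and 2.65 (adjusted p = 2.86e-05 and 4.37e-07), and shRNA 2 was lower than shRNA 1 by 1.00 (adjusted p = 0.00128). In the GENCODE annotation of GRCh38, ZNF276 overlaps 22.4% of the exonic bases of FANCA on the opposite strand. Its levels were 29.5, 28.3 and 29.1 CPM in the 3 groups. Whether counting used the strand is not given in the sources used here, and the part of ZNF276 reads in the FANCA rows was not tested.

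Of the 28 members with more than 1 row, 15 had all rows within 5% of the highest, and 14 rows in 8 members were under 90% of the highest row. Further rows shifted without overlap between control and either shRNA. RAD54B row NM_001205263 held 82.4% of the highest row in control, 89.2% with shRNA 1 and 91.2% with shRNA 2, while NM_001205262 held 89.6%, 74.6% and 66.7%. FSBP, on the same strand, overlaps 63.3% of the exonic bases of RAD54B, so these rows may share its reads. RAD54L row NM_001142548 held 86.6%, 90.5% and 95.0%, and BARD1 row NM_001282545 held 52.3%, 48.4% and 43.4%. The shRNA 2 libraries overlapped control for RAD51C row NM_002876, which held 39.2%, 46.9% and 37.1%, and with the smallest row the fall of RAD51C with shRNA 1 missed the threshold (-0.31, adjusted p = 0.0914).

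**Figure D4:**
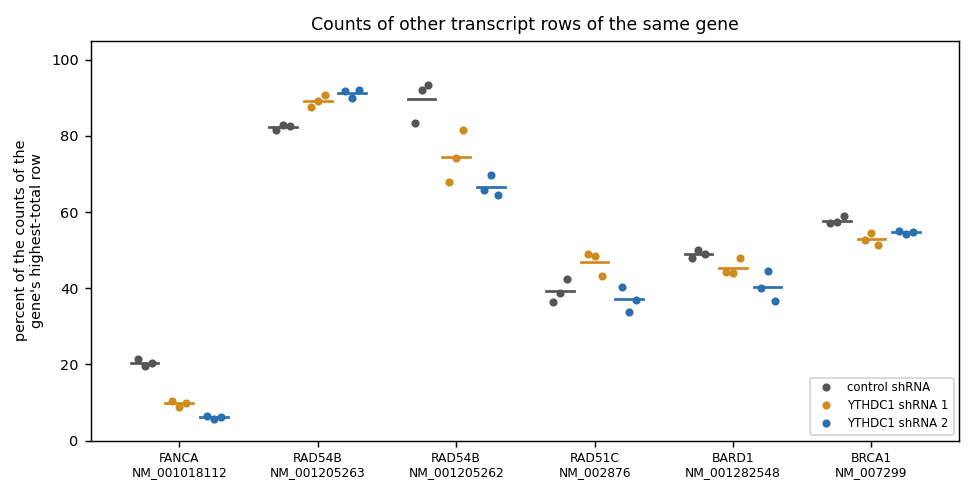
Counts of 6 other transcript rows as a percent of the counts of the gene's highest row, in each library (points; short lines are group means, n = 3). The FANCA row drops from 20.4% in control to 9.75% and 6.09%, the rows of RAD54B move in opposite directions, and those of BARD1 and BRCA1 move by under 9 percentage points.

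In mismatch repair, MSH6, which helps recognise single mispaired bases, stood at 104, 98.1 and 92.0 CPM in control, at 53.5, 47.2 and 61.7 CPM with shRNA 1 and at 43.1, 49.3 and 45.2 CPM with shRNA 2. The control libraries lay above all others and both shRNA groups overlapped each other. MSH6 fell by 0.86 ± 0.11 and 1.1 ± 0.11 (edgeR adjusted p = 0.00018 and 1.35e-05). PMS2, the nuclease subunit that cuts the new strand, had -0.07 with shRNA 1 (adjusted p = 0.73). With shRNA 2 it was lower by 0.43 (adjusted p = 0.0181), a call that missed the threshold when control replicate 2 (0.0826), shRNA 2 replicate 1 (0.0655) or its replicate 3 (0.0581) was left out. PMS2 has near-identical pseudogene copies, and the handling of reads that match more than 1 place is not stated, so its value is uncertain.

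The end joining genes went both ways. LIG4, the ligase that seals the ends, stood at 40, 35.98 and 32.03 CPM in control, at 83.0, 62.7 and 65.5 CPM with shRNA 1 and at 84.8, 85.8 and 81.0 CPM with shRNA 2. All YTHDC1 shRNA libraries lay above all control libraries. LIG4 rose 1.96-fold with shRNA 1 (0.97 ± 0.13 on the log2 scale, adjusted p = 0.000156 in edgeR) and 2.33-fold with shRNA 2 (1.22 ± 0.13, adjusted p = 1.26e-05), the largest rise of the 49 members in each comparison. XRCC4, which binds and stabilises LIG4, passed neither test: it stood at 26.3, 21.1 and 18.0 CPM in control, at 30.5, 25.1 and 23.2 CPM with shRNA 1 and at 18.4, 21.2 and 20.2 CPM with shRNA 2. Control overlapped each shRNA group, the shRNA 2 libraries lay below all shRNA 1 libraries, and the log2 fold changes against control were 0.27 ± 0.15 and -0.13 ± 0.15 (adjusted p = 0.187 and 0.499).

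PRKDC, the catalytic subunit of the DNA-dependent protein kinase, stood at 1306, 1067 and 1124 CPM in control, at 868.9, 742.1 and 755.5 CPM with shRNA 1 and at 575.5, 599.9 and 531.9 CPM with shRNA 2. The 3 groups did not overlap, and PRKDC fell by 0.56 ± 0.12 and 1.03 ± 0.12 (edgeR adjusted p = 0.00313 and 2.65e-05). XRCC5 and XRCC6 encode the Ku ring that first grips a broken end and brings PRKDC to it. XRCC6 had -0.33 with shRNA 1 (adjusted p = 0.0835) and fell by 0.75 with shRNA 2 (adjusted p = 0.000974). The shRNA 1 comparison of XRCC6 passed in edgeR without control replicate 3 (adjusted p = 0.0472) or shRNA 1 replicate 1 (0.0155). XRCC5 had -0.09 with shRNA 1 (edgeR adjusted p = 0.633) and -0.36 with shRNA 2 (adjusted p = 0.0462). The second missed the threshold without control replicate 1 or 2, shRNA 1 replicate 2 or any shRNA 2 library (adjusted p 0.0514 to 0.175). That call also missed in edgeR with the size factors of DESeq2 (0.0567).

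Among the damage signalling genes, ATM was higher, CHEK1, H2AFX, PARP1 and ATRIP were lower with both shRNAs, and ATR passed neither test. ATM, the kinase that answers breaks, stood at 230.2, 206 and 225 CPM in control, at 287, 254 and 310.2 CPM with shRNA 1 and at 293, 314 and 309.9 CPM with shRNA 2. All YTHDC1 shRNA libraries lay above all control libraries. ATM was higher by 0.36 ± 0.10 with shRNA 1 (edgeR adjusted p = 0.0177) and by 0.47 ± 0.10 with shRNA 2 (adjusted p = 0.00275). The first call missed the threshold without control replicate 2 (0.102) or 3 (0.0505) and without shRNA 1 replicate 3 (0.0553). The same call also missed with no filter on low counts (0.0606) and, by a margin lost in rounding, with the compared groups alone (0.05). ATR, the kinase that answers single-stranded DNA at forks, had 0.09 ± 0.11 and 0.19 ± 0.11 (adjusted p = 0.528 and 0.149). ATRIP, the partner that brings ATR to that DNA, fell by 0.56 and 0.82.

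CHEK1, the kinase that ATR switches on, stood at 50.8, 46.4 and 41.5 CPM in control, at 16.1, 13.4 and 14.97 CPM with shRNA 1 and at 5.12, 6.78 and 5.23 CPM with shRNA 2. The groups were fully apart. CHEK1 was 3.12-fold lower with shRNA 1 (-1.64 ± 0.14 on the log2 scale, adjusted p = 1.01e-05 in edgeR) and 8.07-fold lower with shRNA 2 (-3.01 ± 0.15, adjusted p = 5.65e-08). CHEK2, the kinase that ATM switches on, stood at 31.1, 26.7 and 29.5 CPM in control, at 25.9, 21.5 and 23.7 CPM with shRNA 1 and at 10.7, 11.7 and 11.0 CPM with shRNA 2. Its value was -0.29 with shRNA 1 (adjusted p = 0.0521) and it fell by 1.38 ± 0.11 with shRNA 2 (adjusted p = 1.99e-06). All shRNA 1 libraries lay below all control libraries. The shRNA 1 comparison passed with DESeq2 (adjusted p = 0.041) and, in edgeR, without shRNA 1 replicate 1 (0.0354). CHEK2, BRCA1 and FANCD2 also have near-identical partial copies in the genome and carry the same uncertainty as PMS2.

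H2AFX, the histone variant that is phosphorylated around breaks, stood at 13.3, 13.5 and 15.4 CPM in control, at 3.22, 4.89 and 2.08 CPM with shRNA 1 and at 3.03, 2.25 and 1.98 CPM with shRNA 2. The control libraries lay above all others, and both shRNA groups overlapped each other. H2AFX fell by 2.05 ± 0.28 and 2.55 ± 0.29 (edgeR adjusted p = 0.000225 and 2.63e-05). PARP1, which marks nicks and breaks with poly(ADP-ribose), stood at 311, 299 and 295 CPM in control, at 196, 188 and 176 CPM with shRNA 1 and at 173, 179.9 and 169.8 CPM with shRNA 2. It fell by 0.69 ± 0.09 and 0.79 ± 0.09 (adjusted p = 0.00016 and 2.55e-05), with all YTHDC1 shRNA libraries below all control libraries. TP53BP1, which protects ends from resection, had -0.01 with shRNA 1 (adjusted p = 0.952) and fell by 0.45 with shRNA 2 (adjusted p = 0.0023).

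MDC1, the adaptor that reads phosphorylated H2AFX, stood at 536, 459.9 and 504 CPM in control, at 321, 346 and 363 CPM with shRNA 1 and at 0.0632, 202 and 203 CPM with shRNA 2. The first shRNA 2 library held 2 counts, and the others lay below all shRNA 1 libraries. With all 9 libraries the spread hid any difference (log2 fold changes -0.54 ± 1.58 and -1.89 ± 1.63, edgeR adjusted p = 0.819 and 0.369). Without that library MDC1 fell by 0.56 with shRNA 1 and by 1.32 with shRNA 2 (adjusted p = 0.00203 and 5.17e-06), and shRNA 2 was lower than shRNA 1 by 0.76 (adjusted p = 0.00116).

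Set directly against shRNA 1, shRNA 2 gave lower levels for 26 of the 49 members (16.5% of all genes), and none was higher (15.5% of all genes), with a median of -0.47. Without shRNA 2 replicate 1 these were 24 and 0, against 13.2% and 12.8% of all genes. The count of 0 came from edgeR; at an unadjusted p under 0.05 it was also 0, and DESeq2 gave 0 as well. Lower with both shRNAs and lower still with shRNA 2 were 22 members, against 5.39% of all genes, and the levels of 27 members stepped down from control to shRNA 1 to shRNA 2 with no overlap, against 8.03%. The largest of these steps were those of EXO1 (-2.0 ± 0.17, adjusted p = 1.25e-05), XRCC2 (-1.93 ± 0.18, adjusted p = 2.14e-05), BRIP1 (-1.71), RAD54B (-1.43) and CHEK1 (-1.37). FANCG (0.00, adjusted p = 0.993), XRCC3 (-0.02, adjusted p = 0.947) and PARP1 (-0.10, adjusted p = 0.441) showed no step past the test. The proliferation markers were lower with shRNA 2 than with shRNA 1 in 8 of 8, with a median of -2.19; their part in the step was not tested.

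Per length, the module spanned a wide range of levels in control cells. The highest levels in CPM per kb of transcript were those of XRCC5 (159.5), XRCC6 (126.7), PRKDC (86.3), PARP1 (76.2) and MDC1 (66.0), which belong to end joining and damage signalling. FANCC (2.94), ATRIP (4.17), FANCM (4.76), RECQL4 (5.63) and RAD54L (5.84) were the lowest. TONSL went from 6.64 to 0.977 and 0.758 CPM per kb, and XRCC2 from 9.47 to 2.01 and 0.526. LIG4 went from 8.86 to 17.3 and 20.6 CPM per kb, so that it stood below XRCC2 in control and above it with each YTHDC1 shRNA. Over the 48 members with a known length, the log2 fold change had a Spearman rho of 0.21 and 0.14 with transcript length and of 0.17 and 0.10 with the control level per kb, for shRNA 1 and shRNA 2. These values describe the members, which share their libraries.

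Genes that overlap the members, or start near them, were also described. Of the 49 members, 14 overlap the exons of another gene in the table and 8 do so over more than 10% of their exonic bases. XRCC3 shares 45.4% with KLC1 on the opposite strand, which stood at 44.9, 42.8 and 57.8 CPM in the 3 groups, above XRCC3 itself. TP53BP1 shares 28.9% with TUBGCP4 (28.2, 22.0 and 14.9 CPM), and MSH6 shares 21.0% with FBXO11 (57.5, 69.4 and 70.7 CPM). FANCL shares 26.6% with VRK2 on the opposite strand (46.47, 42.85 and 36.21 CPM), near the level of FANCL itself in control. The part of these genes' reads in the counts was not tested. A protein-coding gene on the other strand that starts within 1000 bases was tested for 22 members. Of 12 such pairs whose member was lower with both shRNAs, the neighbour was lower in 3, higher in 5 and past neither threshold in 4 (mean of both shRNAs against control, edgeR). Of all genes, 26.2% were lower and 26.3% higher in that comparison. With so few pairs these counts are given without a reading, and the pairs named next are examples.

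BRCA1 and its neighbour NBR1, an autophagy receptor gene, had opposite calls: NBR1 stood at 43.7 to 48.5 CPM in control and at 89.8 to 108 CPM in the YTHDC1 shRNA libraries, an averaged rise of 1.06 in log2 (adjusted p = 3.27e-06, edgeR). PRKDC and MCM4, which encodes a subunit of the replicative helicase, both fell, MCM4 by 2.01 (adjusted p = 4.45e-08). LIG4 and ABHD13 were both higher, ABHD13 by 0.50 (adjusted p = 0.00395). ATM was higher, while NPAT, a histone gene activator that starts 158 bases away, fell by 0.41 (adjusted p = 0.00407).

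A list of 65 other genes of these pathways also held more lower than higher calls. It too was chosen with earlier results of these data known, so it is no independent test. With shRNA 1, 34 were lower and 6 higher, against 19% and 20.4% of all genes, with a median of -0.40. With shRNA 2, 42 were lower and 7 higher, against 27.4% and 27.5% of all genes, with a median of -0.66. Without shRNA 2 replicate 1 these were 33 and 4, and 42 and 7. CLSPN, the adaptor through which ATR switches on CHEK1, fell by 1.52 and 3.27, and the BLM partner RMI2 had log2 fold changes of -1.56 and -3.01. The largest rises were those of UBE2W, a ubiquitin-conjugating enzyme that can act on FANCD2, by 0.86 and 1.04, of APLF, an end joining factor that binds Ku, by 1.07 with shRNA 2, and of ZSWIM7, a recombination factor, by 1.09 with shRNA 2. With shRNA 1, APLF had 0.51 (adjusted p = 0.0521) and ZSWIM7 0.18 (adjusted p = 0.316).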

How the data were processed

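Whole-number counts per transcript were deposited by the authors in 1 table with a column for each of the 9 libraries, and 0 columns were left unused. Per the submitters' processing notes, STAR, DESeq and the build hg19 were used; their roles and versions, and how reads were assigned to strands and repeats, are not given in the sources read. Of 48104 transcript rows, the highest-total row of each symbol was kept (25679 symbols, of which 9509 had several rows), and 2 rows without a symbol were left out. RefSeq names matched 97.7% of rows. Exon overlaps and neighbours came from the GENCODE annotation of GRCh38 and served only for neighbourhood, since the counts were made on another build.

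The tests used edgeR 4.0.16 (R 4.3.3) on the counts: filterByExpr (16746 genes), TMM scaling (trimmed mean of M values), 1 robust quasi-likelihood fit over all 9 libraries with a mean per group, two-sided F-tests, Benjamini-Hochberg adjustment over all genes tested and a threshold of 0.05. CPM are TMM-scaled. Floors cover counting error only. No pair of replicates agreed within sampling noise. The steps were run on simulated counts with far fewer changed genes, the same changes in both shRNA groups and no library standing apart. That run therefore does not cover the conditions of these data.

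The members and lists were chosen with earlier results of these data known. Values in every library are given for TONSL, for up to 3 members of each class with the largest averaged change past the threshold with both shRNAs, for members that rose, for the 3 members nearest to 0, and for MDC1, because of its loss in shRNA 2 replicate 1; BRCA1, CHEK2, MRE11A and FANCA were added after their values were seen. Pathway genes named are from the 3 largest falls and 3 largest rises of the average; some items are not reported here. Alternatives were DESeq2 1.42.0, its size factors, no filter, the compared groups alone, a replicate block, other rows per symbol, ribosomal RNA precursor rows left out, and each library left out in turn; the smallest row was added after seeing the data.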

Additional observations from a re-analysis of the deposited data

How the results depend on the processing

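No member changed direction with a call under any alternative run. Members lower numbered 36, 41 and 39 (shRNA 1, shRNA 2 and their mean against control) with DESeq2, 35, 40 and 39 with its size factors, 35, 41 and 39 with no filter, and 34, 41 and 39 with the smallest row of each member. Members lower with shRNA 2 than with shRNA 1 numbered 23 to 27 in these fits and in that of the compared groups alone. Leaving out each library in turn gave 34 to 36, 38 to 41, 38 to 40 and 21 to 29 lower members in the 4 comparisons, 2 to 3, 2 to 3 and 3 to 3 higher members against control, and 0 to 1 higher with shRNA 2 than shRNA 1. That 1 was LIG4 without shRNA 1 replicate 1 (0.39, edgeR adjusted p = 0.0266).

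The labels give the groups the same replicate numbers, but same-numbered libraries deviated together with correlations of -0.0876 to 0.568 that did not all exceed 0.1, and not every library correlated best with its own number. A fit with the replicate number as a block gave 35, 41, 39 and 27 lower members and 3, 3, 3 and 0 higher; for shRNA 2 against shRNA 1, FANCE (-0.34, adjusted p = 0.0419) and PMS2 (-0.38, adjusted p = 0.0472) passed and RAD51D (-0.47, adjusted p = 0.0541) did not.

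Several members, such as XRCC2, H2AFX, TONSL, RAD54L, RECQL4 and RAD54B, stood at a few CPM with shRNA 2, above the level of 3 counts, so counting error is larger there. Transcript rows of 1 gene share most of their reads, so the row chosen is 1 view of it. Whether counting separated strands was not given, which touches the 6 members that overlap a gene of the table on the opposite strand over more than 10% of their exonic bases; for RAD54B and ATRIP that overlap is on the same strand.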
